A study of Mus musculus with 3 samples.

Results

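The levels of 32 immediate early and heat shock genes, of the 32288 features in the count matrices, were described across cell classes and libraries of mouse tendon. The genes were taken by symbol and each was found exactly once in all 3 libraries. By role, 24 were immediate early genes and feedback regulators of the same response (6 of AP-1 and ATF, 9 other transcription factors and 9 feedback and signalling genes), and 8 were chaperones. The libraries are droplet single-cell RNA-seq of wild-type (WT) mouse patellar tendon, the band between the kneecap and the shin bone, with haematopoietic and endothelial cells removed by flow sorting. The tendons came from animals 20 weeks old in 2 libraries (20-week replicate 1 and 20-week replicate 2) and 2 weeks old in 1 library. All 3 were digested with type I collagenase at 37 °C for 30 to 60 minutes, per the labels' protocols, and the time used for each library is not given. No undigested tissue was analysed here, so induction in the animal and induction during digestion cannot be told apart. The labels do not give the number of animals in a library, and p-values measure only the spread between these libraries. The tests estimate that spread with information shared over genes, so a p-value does not measure the spread of its gene alone.

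Immediate early genes are transcribed within minutes of a stimulus from promoters that need no new protein, and heat shock genes encode chaperones that keep proteins folded under stress. The serum response factor, the cAMP response element-binding protein and heat shock factor 1 are the best known activators of these genes, and many of the products (Zfp36, Dusp1, Nfkbia, Socs3) switch the response off again. In tendon, Egr1 is known as a transcription factor of collagen genes that responds to load. Enzymatic digestion of tissue at body temperature is also known to induce these genes, so levels in dissociated cells can be a mixture of what the cells carried in the tissue and what digestion added.

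Promoters were looked at first, because some members share a known response element near the start site. Of the 32 genes, 25 had an entry in the RefSeq promoter table of GRCm38.p6, which runs from 250 bases before to 50 bases after the start. Those without one were Egr1, Egr3, Myc, Ier2, Hspa8, Hsp90aa1 and Hsp90ab1. Both strands were searched. The CArG box, which serum response factor binds, was found in Egr2 and Zfp36, 8.0% of the 25 members against 1.81% of all 27025 promoters. The cAMP response element TGACGTCA was found in Btg2, Dusp1 and Ppp1r15a, 12.0% of the members against 2.03% of all promoters. The TATA box TATAAA was found in 6 members (Fos, Junb, Nr4a2, Cebpb, Nfkbia and Ppp1r15a), against 15.7% of all promoters. The AP-1 site TGANTCA was found in 0 members against 8.97% of all promoters, and the heat shock element in 0 members against 0.659%. These are matches of letters in this window and not measured binding. The patterns used for the CArG box and the heat shock element are not printed here. A promoter with no match can still hold a looser form of an element, or hold one outside the window, so 0 matches do not show absence. The windows around the 5 CArG and cAMP response element matches are shown 5′ to 3′ on the gene's strand, with the motif in capitals, because Egr2, Btg2 and Ppp1r15a are among the members that differed between cell classes and Zfp36 and Btg2 among those that differed with age in 1 cluster. Egr2 is chr10:67537444-67537553 on the plus strand with the motif at −72 to −63 from the start. Zfp36 is chr7:28379229-28379336 on the minus strand with the motif at −58 to −49. Btg2 is chr1:134079264-134079371 on the minus strand with the motif at −166 to −159. Dusp1 is chr17:26508558-26508665 on the minus strand with the motif at −143 to −136. Ppp1r15a is chr7:45526269-45526330 on the minus strand with the motif at −12 to −5.
Egr2: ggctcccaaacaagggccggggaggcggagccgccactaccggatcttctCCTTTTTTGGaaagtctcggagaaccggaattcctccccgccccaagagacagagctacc
Zfp36: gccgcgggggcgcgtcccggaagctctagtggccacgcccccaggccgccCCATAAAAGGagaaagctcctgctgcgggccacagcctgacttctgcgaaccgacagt
Btg2: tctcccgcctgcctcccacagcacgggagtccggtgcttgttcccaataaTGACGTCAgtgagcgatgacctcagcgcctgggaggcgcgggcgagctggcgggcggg
Dusp1: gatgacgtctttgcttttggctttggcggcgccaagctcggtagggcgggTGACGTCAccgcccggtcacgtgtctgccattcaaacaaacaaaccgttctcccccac
Ppp1r15a: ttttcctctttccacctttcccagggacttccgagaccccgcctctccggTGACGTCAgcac

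The cells used were 606 of 20-week replicate 1, 1007 of 20-week replicate 2 and 4767 of the 2-week library, with a median of 2822, 5098 and 6425 UMIs (unique molecular identifiers, 1 per captured molecule) per cell. Median mitochondrial shares were 1.61%, 1.71% and 2.27%. Only 2 barcode sequences were shared by 2 libraries among these cells. Markers of cells that the sort should have removed were low for endothelial cells (summed level 2.24 to 14.9 CPM, UMIs scaled to a library total of 1e+06, over 6 markers), macrophages (3.36 to 28.8 CPM over 7), and neutrophils and T or NK cells (under 1 CPM). Erythroid markers, 4 haemoglobin and red cell genes, summed to 5.6 and 39.7 CPM in the 20-week libraries and 139 CPM in the 2-week library, so they moved with age. The 20-week replicate 2 stood apart in 2 lists. Its muscle fibre markers summed to 4357 CPM with 9 of 9 detected, against 8.96 CPM in 20-week replicate 1 and 445 CPM in the 2-week library, and its B lineage markers to 1607 CPM with 7 of 7 detected, against 307 CPM and 576 CPM, of which Ebf1 is also expressed by stromal cells.

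Over all cells, the 24 immediate early genes together were more abundant at 20 weeks in both libraries, but the difference did not pass the test for any of them. They summed to 16821 CPM (1.68% of all UMIs) in 20-week replicate 1 and 17674 CPM (1.77%) in 20-week replicate 2, against 11282 CPM (1.13%) in the 2-week library. The 8 chaperones were close together, at 5659 and 5490 CPM in the 20-week libraries and 5217 CPM in the 2-week library. Both 20-week libraries lay above the 2-week library for 15 of 24 immediate early genes and 3 of 8 chaperones. Both lay below it for 1 immediate early gene, Ier2, and 1 chaperone, Hspb1. This order was not counted over all genes, so these counts have no background. The fitted fold change was positive for 21 of 24 immediate early genes and 5 of 8 chaperones, beside 6973 of 13302 genes tested. Levels are UMIs of 3′ ends, so gene length does not enter.

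**Figure D1:**
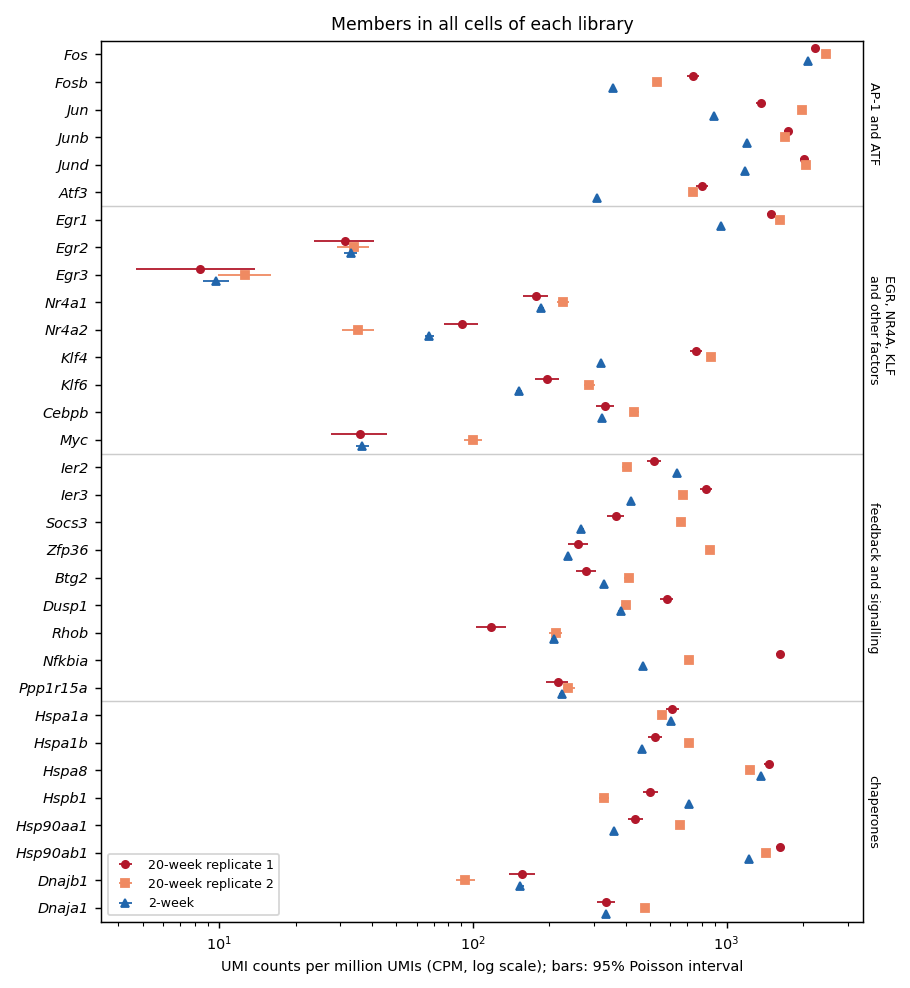
Level of each of the 32 genes over all cells of a library, in CPM on a log axis, grouped by role, with 1 point per library and exact 95% Poisson intervals (counting error). The 20-week points of Atf3 and Klf4 lie between 740 and 872 CPM, and the 2-week points between 309 and 321 CPM.

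Among the AP-1 and ATF genes, whose Fos and Jun family products pair to form the factor AP-1, Fos had 2233 and 2473 CPM in the 20-week libraries (replicate 1 first, here and below) and 2092 CPM in the 2-week library. Junb had 1742 and 1695 CPM at 20 weeks and 1207 CPM at 2 weeks. Jund, the member of the Jun family least dependent on a stimulus, had 2017 and 2054 CPM at 20 weeks and 1180 CPM at 2 weeks. For these 3 genes the ages did not overlap, although the distance for Fos was small. Atf3, a stress-induced repressor of the ATF/CREB family (chr1:191170296-191218039, mm10), had 799 and 740 CPM at 20 weeks and 309 CPM at 2 weeks. Fosb and Jun were between 534 and 1984 CPM in the 20-week libraries and at 356 and 889 CPM in the 2-week library. All 6 genes of this role had positive fold changes, with a median of 0.86 on the log2 scale.

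Among the other transcription factors, Egr1, a zinc finger factor, had 1497 and 1620 CPM at 20 weeks and 949 CPM at 2 weeks. Klf4, a Krüppel-like factor (chr4:55527143-55532466), had 760 and 872 CPM at 20 weeks and 321 CPM at 2 weeks. Cebpb, a basic leucine zipper factor of inflammation and differentiation, had 332 and 433 CPM at 20 weeks and 323 CPM at 2 weeks, a near tie for replicate 1. The other 6 were lower. Egr2, Egr3, Nr4a1, Nr4a2, Klf6 and Myc lay between 8.4 and 287 CPM in the 20-week libraries and between 9.72 and 186 CPM in the 2-week library. Nr4a2, an orphan nuclear receptor, differed between the 20-week replicates, with 90.2 and 35.3 CPM on either side of 67.4 CPM at 2 weeks. Myc also differed between them, with 35.9 and 100 CPM against 36.7 CPM at 2 weeks.

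Among the feedback and signalling genes, Nfkbia, the inhibitor that holds NF-kappaB in the cytoplasm, had 1629 and 712 CPM at 20 weeks and 468 CPM at 2 weeks. Ier3, a regulator of survival, had 831 and 671 CPM at 20 weeks and 421 CPM at 2 weeks. Ier2, a nuclear immediate early protein, had 519 and 404 CPM at 20 weeks and 637 CPM at 2 weeks, the only one of the 3 that was lower at 20 weeks. The rest ran from 118 to 864 CPM at 20 weeks and from 208 to 382 CPM at 2 weeks. Zfp36, whose product triggers decay of inflammatory mRNAs, set the upper end with 260 and 864 CPM at 20 weeks, 237 CPM at 2 weeks. The 20-week replicates were thus further apart from each other for Nfkbia and Zfp36 than one of them was from the 2-week library.

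Among the chaperones, Hspa8, the constitutive member of the HSP70 family, had 1466 and 1240 CPM at 20 weeks and 1364 CPM at 2 weeks. Hsp90ab1, the constitutive cytosolic HSP90, had 1631 and 1428 CPM at 20 weeks and 1225 CPM at 2 weeks. Hspa1a, an HSP70 gene induced by heat shock, had 611 and 557 CPM at 20 weeks and 604 CPM at 2 weeks, so the ages overlapped. The others (Hspa1b, Hspb1, Hsp90aa1, Dnajb1 and Dnaja1) ran from 93.5 to 712 CPM at 20 weeks and from 154 to 708 CPM at 2 weeks. Hspa1a and Hspa1b are near copies whose transcripts are 86.3% identical over their length and 56.7% over the last 300 bases, and how the authors' counting treated reads that match both is not given in the sources used here. Among the 32 genes, 10 overlap a gene on the opposite strand (Jun, Junb, Jund, Atf3, Cebpb, Zfp36, Dusp1, Ppp1r15a, Hspa1a and Dnaja1), and 3 overlap one on the same strand (Dusp1, Hspa8 and Dnaja1). The strand setting of the counting is not given either, so how reads of such pairs were assigned is not known here.

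The test of age over all cells called 0 of 32 genes (edgeR's quasi-likelihood test, Benjamini-Hochberg threshold 0.05), where 0.165% of all genes tested were called. Unadjusted p was under 0.05 for 0 of 32, against 8.39% of all genes, and DESeq2 called 0 of 32, against 1.77% of all genes. The members at least 2-fold higher in each 20-week library were Atf3 and Klf4. Atf3 stood at 1.36 on the log2 scale (SE 0.68, adjusted p = 0.71 by edgeR), and the single libraries stood at 1.59 and 1.09 over the 2-week library. Klf4 had 1.37 (SE 0.66, adjusted p = 0.691), with 1.46 and 1.27 for the single libraries. The median log2 fold change was 0.61 over the 24 immediate early genes and 0.16 over the 8 chaperones, beside 0.03 over all genes tested. The single 20-week libraries gave 0.61 and 0.37 for the immediate early genes and 0.28 and −0.12 for the chaperones. There is 1 residual degree of freedom in this comparison, and depth and the makeup of the cells moved with age. Their part in the differences was not tested.

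Cells within a library differed widely, and 20-week replicate 2 was the most uneven. The immediate early genes together took a median of 1.49% of a cell's UMIs in 20-week replicate 1, 0.587% in 20-week replicate 2 and 0.93% in the 2-week library. The middle 50% of cells ran from 0.782% to 2.42% in 20-week replicate 1, from 0.236% to 2.32% in 20-week replicate 2 and from 0.49% to 1.56% in the 2-week library. Cells at or above 2% made up 35.3% (95% exact binomial interval 31.5 to 39.3%) and 28.6% (25.8 to 31.5%) of the 20-week libraries and 14.3% (13.3 to 15.3%) of the 2-week library. Cells below 0.5% made up 13.4% (10.8 to 16.3%) and 45.7% (42.6 to 48.8%) of the 20-week libraries and 25.6% (24.3 to 26.8%) of the 2-week library. Thus 20-week replicate 2 held both many cells with little of these transcripts and many with much, and its high sum over all cells came with a low median cell. Intervals cover counting error only.

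**Figure D2:**
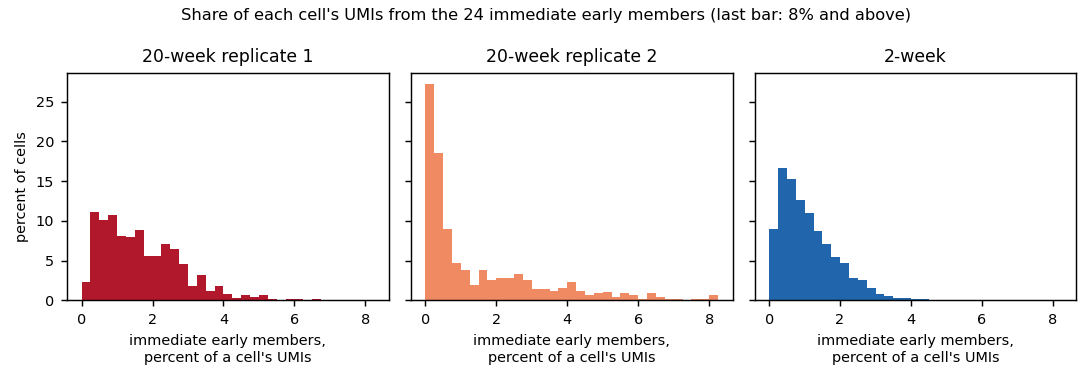
Distribution over cells of the share of UMIs taken by the 24 immediate early genes, in percent on the x axis, with the percent of cells in each bin on the y axis, for each library. Replicate 2 of 20 weeks has 45.7% of its cells below 0.5% and 28.6% at or above 2%.

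With each cell thinned to 1000 UMIs, the median cell held 8 of the 24 immediate early genes in 20-week replicate 1, 4 in 20-week replicate 2 and 6 in the 2-week library, and 3, 2 and 3 of the 8 chaperones. Fos was detected in 69.1% and 39.8% of thinned cells of the 20-week libraries and in 66.6% of the 2-week library. Without thinning these shares were 82.7%, 52.6% and 88.3%. Atf3 was detected in 34.3% and 21.5% of thinned cells of the 20-week libraries and in 16.6% of the 2-week library, the order its CPM had. For comparison, 6.1% of barcodes with muscle fibre markers in 20-week replicate 2 had a Fos UMI without thinning (median 2395 UMIs). With thinning the share was 2.44%. Their median mitochondrial share was 0.15%, against 1.71% over the library, and whether they hold whole cells was not tested.

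Cells were then grouped by clustering without the 32 genes, and clusters were named from marker genes. The tenocyte-like class (Tnmd, Scx, Fmod, Thbs4), the progenitor-like class (Pi16, Cd55, Cd248, Dpp4) and the mural-like class (Rgs5, Kcnj8, Acta2, Myh11) had at least 20 cells in every library. In each library at least 7 of 8 tenocyte markers, 8 of 8 progenitor markers and 8 of 9 mural markers were over 2-fold higher in their class, and none was at 0. The clusters were named from the same lists in the same cells, so these counts do not test the names. Different clusters hold most of a class in different libraries. Tenocyte-like cells were mostly cluster 6 at 20 weeks (232 and 118 cells) and clusters 4 and 7 at 2 weeks (543 and 244 cells), and Spp1 and Ibsp, genes of mineralizing tissue, lead clusters 4 and 6. Mural-like cells were clusters 5 and 9, of which cluster 5 had 16 and 0 cells in the 20-week libraries and 461 in the 2-week library. Progenitor-like cells were mostly cluster 1, with 77 and 62 cells at 20 weeks and 690 at 2 weeks.

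The spread of the immediate early sum between groups of cells was narrow in 20-week replicate 1 and wide in 20-week replicate 2. The highest group was 1.44 times the lowest over 6 groups of 20-week replicate 1, 17.5 times over 10 groups of 20-week replicate 2 and 3.05 times over 12 groups of the 2-week library. In tenocyte-like cells they summed to 16152 and 12590 CPM at 20 weeks and 9602 CPM at 2 weeks. In progenitor-like cells they summed to 14190 and 9604 CPM at 20 weeks and 8363 CPM at 2 weeks. In mural-like cells they summed to 19355 and 8229 CPM at 20 weeks and 16459 CPM at 2 weeks. The mural-like cells of 20-week replicate 2 were 34 cells with a median of 1940.5 UMIs and 4.13% mitochondrial UMIs, against 2036 UMIs and 3.12% in the 43 cells of 20-week replicate 1 and 6994 UMIs and 3.55% in the 665 cells of the 2-week library. All 34 were of cluster 9 and 0 of cluster 5. In 20-week replicate 1, 27 were of cluster 9 and 16 of cluster 5, and in the 2-week library 204 and 461. The part of depth, of this makeup and of these few cells in the low value was not tested. Chaperones in mural-like cells summed to 7008 and 2291 CPM at 20 weeks and 6372 CPM at 2 weeks, so the same cells were low in both sets.

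**Figure D3:**
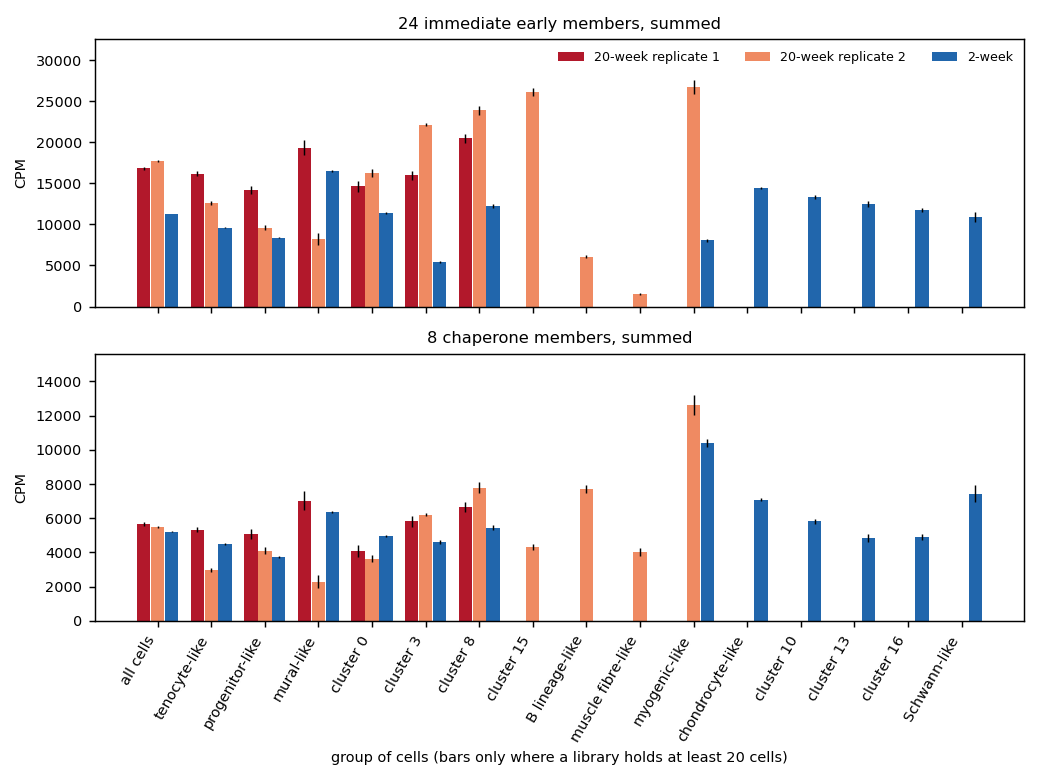
Summed level of the 24 immediate early genes and of the 8 chaperones in each class or cluster with at least 20 cells in a library, in CPM, with 1 bar per library and exact 95% Poisson intervals. Muscle fibre-like cells have the lowest immediate early sum (1524 CPM) and myogenic-like cells of 20-week replicate 2 the highest (26693 CPM).

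Between classes, 3 members differed between tenocyte-like and progenitor-like cells with the library as a block, and all 3 were higher in tenocyte-like cells. That is 3 of 31 members tested, where 12.4% of all genes were called and 5.99% were called higher. Btg2, an antiproliferative cofactor of mRNA decay (chr1:134075170-134079120), had 270, 286 and 372 CPM in tenocyte-like cells of 20-week replicate 1, 20-week replicate 2 and the 2-week library, against 141, 85.6 and 107 CPM in progenitor-like cells. The classes did not overlap. Its log2 fold change was 1.78 (SE 0.34, adjusted p = 0.00513 by edgeR). Nr4a2 (chr2:57106830-57124003) had 110, 39.2 and 52.5 CPM in tenocyte-like cells, against 19.5, 3.06 and 14.4 CPM in progenitor-like cells, where the middle value is 1 UMI. Its log2 fold change was 2.68 (SE 0.47, adjusted p = 0.00293 by edgeR). Egr2 (chr10:67535475-67542188) had 48.2, 26.5 and 29.5 CPM in tenocyte-like cells, against 7.81, 6.12 and 8.52 CPM in progenitor-like cells, of which the first 2 rest on 2 UMIs each. Its log2 fold change was 2.39 (SE 0.46, adjusted p = 0.00487 by edgeR). Nr4a2 and Egr2 were too low to be tested within progenitor-like cells and passed the low-count filter here through classes where they are higher, so they were bound to differ in that direction. Fitted with no filter on low counts, their adjusted p was 3.06e-08 and 1.01e-05. With thinned sums, each cut at random to the smallest sum of the comparison, Nr4a2 was not called (adjusted p = 0.234 by edgeR). Egr2 had too few counts to test there. At the finer clustering Btg2 was not called (adjusted p = 0.119 by edgeR). DESeq2 called 5 members, adding Dusp1, which was higher, and Klf6, which was lower (adjusted p = 0.0327 by DESeq2 and 0.158 by edgeR, log2 fold change −0.73 by edgeR). The count depended on 20-week replicate 2, since it was 9 without that library, with Cebpb, Hspa1a, Hspa1b, Hspb1, Ier3 and Socs3 added. The median log2 fold change was 0.61 over the immediate early genes, 0.16 over the chaperones and 0.04 over all genes.

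Mural-like cells differed from progenitor-like cells in 7 of 31 members tested, where 17.2% of all genes were called. Of these, 6 were higher (7.8% of all genes) and 1 was lower (9.36% of all genes). Btg2 had 510, 859 and 570 CPM in mural-like cells of 20-week replicate 1, 20-week replicate 2 and the 2-week library, against 141, 85.6 and 107 CPM in progenitor-like cells, and its log2 difference was 2.44 (SE 0.36, adjusted p = 0.000614 by edgeR). It was higher in mural-like cells in every library. Nr4a2 had 170 CPM in 20-week replicate 1, 0 UMIs in 20-week replicate 2, where 3 UMIs would be 45.2 CPM, and 106 CPM in the 2-week library, against 19.5, 3.06 and 14.4 CPM, and its log2 difference was 2.87 (SE 0.49, adjusted p = 0.00171). Egr2 had 63.8 CPM, 0 UMIs and 44.7 CPM, against 7.81, 6.12 and 8.52 CPM, and its log2 difference was 2.36 (SE 0.49, adjusted p = 0.00565). Both genes again passed the low-count filter through classes where they are higher. With no filter, adjusted p was 2.29e-08 for Nr4a2 and 7.48e-05 for Egr2. For both genes the comparison rests on 20-week replicate 1 and the 2-week library, and nothing was detectable in the 34 mural-like cells of 20-week replicate 2 at that depth.

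Cebpb had 936, 181 and 901 CPM in mural-like cells, against 62.5, 199 and 115 CPM in progenitor-like cells, and its log2 difference was 2.41 (SE 0.7, adjusted p = 0.0358 by edgeR). In 20-week replicate 2 the classes were level. Hspb1, a small heat shock protein that binds actin filaments and is abundant in contractile cells, had 1819, 301 and 2014 CPM in mural-like cells, against 332, 193 and 205 CPM in progenitor-like cells. It was the 1 chaperone called, and its log2 difference was 2.18 (SE 0.53, adjusted p = 0.0147 by edgeR). Ppp1r15a, which reverses the translational arrest of the stress response, had 479, 196 and 512 CPM in mural-like cells, against 188, 141 and 128 CPM in progenitor-like cells, and its log2 difference was 1.38 (SE 0.41, adjusted p = 0.0398 by edgeR). Klf4 went the other way. It had 213 CPM, 0 UMIs and 168 CPM in mural-like cells, against 1438, 1306 and 680 CPM in progenitor-like cells, and its log2 difference was −2.94 (SE 0.72, adjusted p = 0.0151 by edgeR). Without 20-week replicate 1 the calls were 3, and Cebpb, Hspb1, Klf4 and Ppp1r15a were lost. Without the 2-week library they were also 3, and Cebpb, Egr2, Hspb1 and Ppp1r15a were lost. Without 20-week replicate 2, whose mural-like cells are shallow, they were 12. At the finer clustering they were 5, without Cebpb and Ppp1r15a. With thinned sums they were 8, with Fosb and Junb added and Egr2 too low to test. Btg2 was called under every alternative tried for this comparison. So was Nr4a2, with the limits given above of the low-count filter and of 0 UMIs in mural-like cells of 20-week replicate 2.

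**Figure D4:**
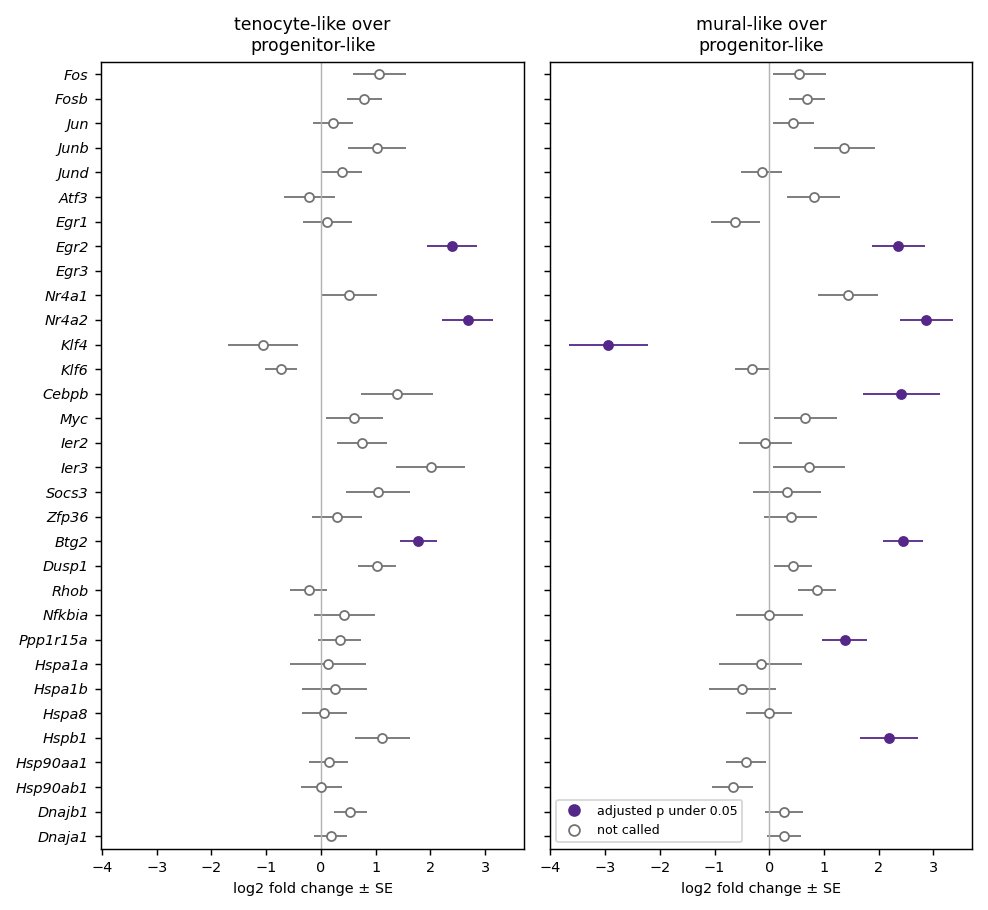
Log2 fold change of each member between classes, with bars of 1 SE, from edgeR's quasi-likelihood fit with the library as a block; filled points passed an adjusted p of 0.05. Btg2, Nr4a2 and Egr2 are filled on the right in both comparisons with progenitor-like cells, and Klf4 is filled on the left at −2.94 in mural-like over progenitor-like cells.

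Mural-like and tenocyte-like cells were not separated by any of 31 members tested (0 called by edgeR's quasi-likelihood test), where 15.6% of all genes were called. At an unadjusted p under 0.05 there were 3 of 31, against 27.5% of all genes. DESeq2 called 1 of 32, Rhob, a small GTPase of actin and endosome traffic, where it called 11.5% of all genes. The medians were 0.04 for immediate early genes, −0.28 for chaperones and −0.04 for all genes. Without 20-week replicate 2 the count was 6 (Atf3, Cebpb, Hspb1, Klf4, Nr4a1 and Ppp1r15a), and without the 2-week library it was 1 (Klf4).

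Age within a class was tested next, and no member passed in any of the 3 classes. Tenocyte-like cells of 20 weeks and of 2 weeks were mostly of different clusters, so age and kind of cell cannot be told apart in that class. In tenocyte-like cells, edgeR called 0 of 31 members, where 7.72% of all genes were called. At an unadjusted p under 0.05 there were 2, Atf3 and Nfkbia, against 17.3% of all genes, and DESeq2 called 0 of the members and 2.78% of all genes. Atf3 stood at 1.76 on the log2 scale (SE 0.78, adjusted p = 0.191) and Nfkbia at 1.94 (SE 0.87, adjusted p = 0.198). In progenitor-like cells, edgeR called 0 of 28 members, where 2.74% of all genes were called. At an unadjusted p under 0.05 there was 1, Nr4a1, against 8.94% of all genes, and DESeq2 called 0 of the members and 0.751% of all genes. Nr4a1 stood at 2.01 in 20-week replicate 1 and at −0.42 in 20-week replicate 2 over the 2-week library, so the replicates lay on opposite sides. In mural-like cells, edgeR called 0 of 29 members, where 0.0873% of all genes were called. At an unadjusted p under 0.05 there were 0 of 29, against 2.62% of all genes, and DESeq2 called 0 of the members and 0.0065% of all genes. Members with too few counts to test were Egr3 in tenocyte-like cells, Egr2, Egr3, Nr4a2 and Myc in progenitor-like cells, and Egr2, Egr3 and Myc in mural-like cells.

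The 20-week replicates parted within classes. The median log2 fold change of the immediate early genes over the 2-week library was 0.68 in 20-week replicate 1 and 0.06 in 20-week replicate 2 for tenocyte-like cells, 0.87 and 0.02 for progenitor-like cells, and 0.19 and −1.78 for mural-like cells. Within cluster 9 alone, which held all mural-like cells of 20-week replicate 2, it was 0.83 and −0.82. For the chaperones of tenocyte-like cells it was 0.05 and −1.38. In 20-week replicate 2 the immediate early sums of these classes (8229 to 12590 CPM) were all below that of its cells as a whole (17674 CPM).

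Whether the age difference itself differed between classes was tested with an interaction of class and age, and 0 of 31 members passed in each of the 3 contrasts by edgeR. Between tenocyte-like and progenitor-like cells 1.2% of all genes were called, 3 members had an unadjusted p under 0.05 against 6.64% of all genes, and DESeq2 called 0 members and 1.67% of all genes. Between mural-like and progenitor-like cells 0.535% of all genes were called, 5 members had an unadjusted p under 0.05 against 6.85% of all genes, and DESeq2 called 0 members and 0.0212% of all genes. The lowest of these was Nr4a1, at −2.55 (SE 0.72, adjusted p = 0.0732). Between mural-like and tenocyte-like cells 1.64% of all genes were called, 5 members had an unadjusted p under 0.05 against 9.59% of all genes, and DESeq2 called 0 members and 1.19% of all genes.

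Clusters that took no name or make up part of a class were compared by number, wherever each library had at least 20 cells. These fits were added after the data had been seen. In cluster 0 (led by Igfbp3, Sfrp2 and Ptn) edgeR called 0 of 30 members and 0.646% of all genes. Unadjusted p was under 0.05 for 0 of 30, against 8.3% of all genes, and DESeq2 called 0 members and 2.22% of all genes. In cluster 1 (Dact2, Pi16 and Cd55) edgeR called 0 of 28 members and 2.86% of all genes, with 1 member and 9.41% of all genes at an unadjusted p under 0.05, and DESeq2 called 0 members and 1.08% of all genes. In cluster 8 (Mmp3, Lpl and Cxcl14) edgeR called 0 of 30 members and 2.28% of all genes, with 1 member and 9.39% of all genes at an unadjusted p under 0.05, and DESeq2 called 0 members and 0.868% of all genes. In cluster 9 (Rgs5, Kcnj8 and Abcc9) edgeR called 0 of 28 members and 0.178% of all genes, with 0 members and 2.01% of all genes at an unadjusted p under 0.05, and DESeq2 called 0 members and 0.0% of all genes. Summed immediate early levels in cluster 8 were 20464 and 23888 CPM at 20 weeks and 12213 CPM at 2 weeks, and in cluster 0 they were 14631 and 16256 CPM at 20 weeks and 11399 CPM at 2 weeks.

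In cluster 3, a stromal cluster led by Hmcn2, Hmcn1 and Abca8a, 10 of 32 members were higher at 20 weeks and 0 were lower. Over all genes 5.36% were called and 3.06% were called higher. With 1 residual degree of freedom, these calls rest largely on a spread shared over genes. The cluster had 74 and 322 cells in the 20-week libraries and 166 in the 2-week library. The immediate early genes summed to 15959 and 22135 CPM at 20 weeks and 5401 CPM at 2 weeks, and the chaperones to 5815 and 6206 CPM at 20 weeks and 4627 CPM at 2 weeks. The 10 called were 2 of 6 AP-1 and ATF genes, 3 of 9 other factors and 5 of 9 feedback and signalling genes, and 0 of 8 chaperones, of which 1 had an unadjusted p under 0.05 and DESeq2 called 0.

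Atf3 had the largest difference, with 1113 and 1156 CPM at 20 weeks and 60.1 CPM at 2 weeks (log2 fold change 4.41, SE 0.84, adjusted p = 1.86e-05 by edgeR). Fosb had 633 and 584 CPM at 20 weeks and 93.2 CPM at 2 weeks (2.88, SE 0.71, adjusted p = 0.00219). Both AP-1 and ATF genes were alike in the 20-week replicates and far from the 2-week library. Among the other factors, Myc, a driver of growth, had 35.9 and 147 CPM at 20 weeks and 14.7 CPM at 2 weeks (2.89, SE 0.64, adjusted p = 0.000319). Nr4a1 had 126 and 324 CPM at 20 weeks and 57.2 CPM at 2 weeks (2.15, SE 0.61, adjusted p = 0.0131). Nr4a2 had 58.3 and 42.1 CPM at 20 weeks and 11.7 CPM at 2 weeks (2.15, SE 0.62, adjusted p = 0.0156). For Myc and Nr4a1 the larger value was that of 20-week replicate 2.

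Of the feedback genes in cluster 3, Zfp36 had 314 and 1272 CPM at 20 weeks and 65.3 CPM at 2 weeks (3.73, SE 0.77, adjusted p = 9.79e-05 by edgeR). Socs3, an inhibitor of cytokine receptor signalling, had 408 and 1112 CPM at 20 weeks and 112 CPM at 2 weeks (2.9, SE 0.73, adjusted p = 0.00284). Ier3 had 695 and 958 CPM at 20 weeks and 120 CPM at 2 weeks (2.95, SE 0.74, adjusted p = 0.00279). In these 3 genes both 20-week libraries were above the 2-week library. Nfkbia had 1288 and 796 CPM at 20 weeks and 182 CPM at 2 weeks (2.71, SE 0.75, adjusted p = 0.0103). Btg2 had 323 and 478 CPM at 20 weeks and 114 CPM at 2 weeks (1.97, SE 0.64, adjusted p = 0.0424).

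**Figure D5:**
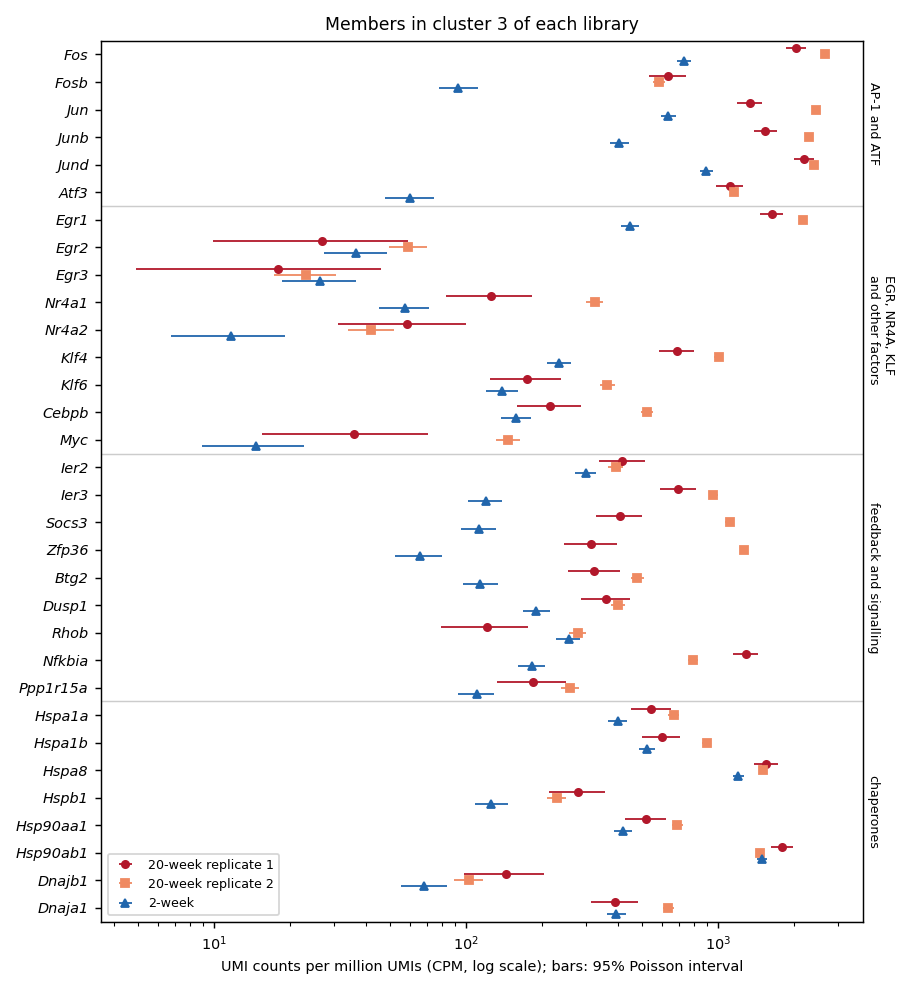
Level of each member in cluster 3, in CPM on a log axis, with 1 point per library and exact 95% Poisson intervals. The 20-week points of Atf3 (1113 and 1156 CPM) stand above the 2-week point (60.1 CPM), and chaperones lie closer together.

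The median log2 fold change in cluster 3 was 1.99 over the immediate early genes (1.65 and 2.05 for the single 20-week libraries), 0.68 over the chaperones and 0.01 over all genes. Without 20-week replicate 2 the log2 ratios over the 2-week library were 1.41 for Myc, 1.36 for Nr4a1, 2.11 for Socs3 and 2.49 for Zfp36, and without 20-week replicate 1 that of Zfp36 was 4.32, with no test. With the sum of each library thinned at random to the smallest sum of the comparison, 1 member was called, Atf3. DESeq2 called 10, of which 6 were the same (Atf3, Fosb, Ier3, Nfkbia, Socs3 and Zfp36) and the others were Egr1, Fos, Junb and Klf4. At a finer clustering the cells of cluster 3 parted by age, since 155 of its 166 cells of 2 weeks fell in a cluster with 4 and 5 cells of the 20-week libraries, so age and kind of cell cannot be told apart here. The 20-week replicates also differed in makeup. Of the 74 cells of replicate 1, 41 fell in a finer cluster named progenitor and 25 in an unnamed one. Of the 322 cells of replicate 2, 66 and 250 did. The difference between cluster 3 and the 5 other groups of cells in the age effect was tested by an interaction, and edgeR called 0 of 32 members and 0.0255% of all genes. Unadjusted p was under 0.05 for 16 of 32 members and 5.34% of all genes; DESeq2 was not run for it.

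Groups found mainly in a single library, or with under 20 cells in another, are given as levels with no test. Cluster 15, with 88 cells of 20-week replicate 2 and 1 in each other library, summed to 26119 CPM of immediate early genes and 4328 CPM of chaperones. Myogenic-like cells (Pax7, Myf5, Myod1) summed to 26693 CPM of immediate early genes in the 32 cells of 20-week replicate 2 and 8040 CPM in the 121 cells of the 2-week library, and to 12635 CPM and 10402 CPM of chaperones. Their chaperone sums were the highest of any group in both libraries. Chondrocyte-like cells of the 2-week library (657 cells) had 14412 CPM of immediate early genes and 7091 CPM of chaperones. Schwann-like cells (32 cells) had 10914 CPM and 7429 CPM.

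Cells with muscle fibre or B lineage markers were described in 20-week replicate 2, where their immediate early genes summed to 1524 CPM and 6085 CPM. Their median mitochondrial shares were 0.15% and 1.96%, against 1.71% over the library. Whether the muscle fibre-like barcodes hold whole cells was not tested. In the 82 muscle fibre-like cells, 21 of 24 immediate early genes were below 0.2 of their level in the 858 cells of the library that were of neither kind, called the other cells here. Fos had 17.6 CPM there and 2873 CPM in the other cells, and Egr1 had 3.53 CPM and 1886 CPM. The other 3 were Nr4a1 (52.9 CPM and 256 CPM), Ppp1r15a (74.1 CPM and 265 CPM) and Cebpb, the only one within 2-fold, with 550 CPM and 471 CPM. Socs3 had 0 UMIs in them, and 3 UMIs would be 0.0138 of its 770 CPM in the other cells. Hspb1 had 1866 CPM in muscle fibre-like cells and 270 CPM in the other cells, 6.91-fold, while 5 of 8 chaperones were below 0.2 of it. In the 67 B lineage-like cells, 13 of 24 immediate early genes were below 0.2 of their level in the other cells. Btg2 had 605 CPM there and 413 CPM in the other cells, Jund had 2559 CPM and 2102 CPM, and Nfkbia had 637 CPM and 760 CPM. Hsp90aa1, the inducible HSP90, had 1657 CPM in B lineage-like cells and 584 CPM in the other cells, and Hspb1 had 2.0 CPM and 270 CPM. How many of all genes fell below 0.2 in either kind of cell was not counted, so these counts of members have no background. Muscle fibre-like and B lineage-like cells make up 8.14% and 6.65% of 20-week replicate 2. With muscle and blood-lineage clusters left out, the age test over all cells still called 0 of 32 members, and the median log2 fold change of the immediate early genes was 0.7, against 0.61 with them.

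Within each library, cells high in immediate early genes tended to be high in chaperones. Pearson's r between the log-normalised sums was 0.44 over the 606 cells of 20-week replicate 1, 0.59 over the 1007 cells of replicate 2 and 0.51 over the 4767 cells of the 2-week library. These are descriptions across cells that share a library, and depth moved with them in 20-week replicate 2, where r with the log of UMIs was 0.48, against 0.05 in 20-week replicate 1 and 0.14 in the 2-week library. For the mitochondrial share, r with the immediate early sum was −0.23 in 20-week replicate 2, −0.02 in replicate 1 and −0.04 at 2 weeks. Within groups of cells it ran from −0.49 to −0.18 in replicate 2. It ran from −0.13 to 0.26 in replicate 1 and from −0.28 to −0.01 at 2 weeks. Over pairs of members, the median r was 0.13, 0.39 and 0.21 for 276 immediate early pairs and 0.135, 0.34 and 0.225 for 28 chaperone pairs. The closest pairs were Hspa1a with Hspa1b (0.51, 0.67 and 0.63), Junb with Egr1 (0.5, 0.8 and 0.53) and Fos with Egr1 (0.46, 0.82 and 0.55). Among genes outside the set, those most like the immediate early sum over cells, by the lowest r of the 3 libraries, included Gadd45b (0.42), Irf1 (0.37), Gadd45g (0.35), Pnrc1 (0.35), Klf2 (0.34), Ccnl1 (0.34), H3f3b (0.33), Nfkbiz (0.32) and Ifrd1 (0.31).

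Lists of related genes were counted in the same fits. Over all cells, edgeR called 0 of 45 other immediate early genes, 0 of 20 NF-kappaB targets and cytokines, 0 of 21 other chaperones and 0 of 12 genes of the integrated stress response, with 4, 12, 1 and 1 at an unadjusted p under 0.05 (8.39% of all genes) and 1, 6, 1 and 0 called by DESeq2. The NF-kappaB list had a median log2 fold change of 1.45 with 20 of 20 positive, beside 0.03 over all genes. In cluster 3, where 3.06% of all genes were called higher, 14 of 18 NF-kappaB targets were higher at 20 weeks, led by the cytokine Il6 (4.47), the prostaglandin synthase Ptgs2 (3.36) and the adhesion molecule Icam1 (3.28), as were 11 of 39 other immediate early genes (Cdkn1a 3.97, Maff 3.17 and Csrnp1 3.0), 1 of 21 other chaperones (Hspb8, 2.82) and 0 of 10 genes of the integrated stress response, 1 of which had an unadjusted p under 0.05. DESeq2 called 6, 5, 0 and 0 of these 4 lists. In tenocyte-like over progenitor-like cells, where 5.99% of all genes were called higher and 6.38% lower, 13 of 37 other immediate early genes were higher, among them Ccn2 (3.18), a matrix protein that responds to load, the kinase Sgk1 (2.7) and Gadd45b (3.89). In the same comparison 6 of 14 NF-kappaB targets were lower, among them Ptgs2 (−3.1), Csf1 (−1.53) and Ccl2 (−2.65), and 1 of 8 genes of the integrated stress response was higher (Asns, 2.19). Of the other chaperones edgeR called 0 of 19, with 2 at an unadjusted p under 0.05 and 0 by DESeq2. In mural-like over progenitor-like cells, where 7.8% of all genes were called higher and 9.36% lower, 6 of 37 other immediate early genes were higher, among them Gadd45b (3.58) and Ier5l (2.73), and 1 was lower (Maf, −2.19). There 1 of 14 NF-kappaB targets was higher (Cxcl1, 1.7) and 4 were lower, among them Csf1 (−2.08) and Ptgs2 (−4.4). The small heat shock protein Cryab (1.39) and Dnajb4 (1.25) were the 2 of 19 other chaperones that were higher, and 2 of 8 genes of the integrated stress response were lower (Nupr1, −3.56, and Phgdh, −4.68). In mural-like over tenocyte-like cells, where 6.75% of all genes were called higher and 8.85% lower, 7 of 37 other immediate early genes were lower, among them Ccn2 (−2.85) and Sgk1 (−2.21), and 1 was higher. There 3 of 14 NF-kappaB targets were higher (Cxcl1 2.22, Bcl3 3.06 and Ccl2 2.1), 1 of 19 other chaperones was higher (Dnajb4, 1.82) and 1 lower (Dnajc3, −0.9), and 3 of 8 genes of the integrated stress response were lower (Nupr1 −4.51, Phgdh −5.17 and Asns −2.74).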

How the data were processed

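The deposited values are raw UMI counts for each gene in each barcode. The authors used Cell Ranger 6.1.2 with mm10, per the submitters' processing notes and the file headers, and other settings are not given in the sources used here. A barcode was used here if it had 500 genes or more, 1000 UMIs or more and no more than 10% mitochondrial UMIs. Doublets were called per library with a rewritten scrublet-type score and left out (3, 8 and 197 barcodes of 20-week replicate 1, 20-week replicate 2 and the 2-week library), which left 1784845, 5519791 and 32421436 UMIs. CPM values are UMIs of the cells summed, scaled to a total of 1e+06, with exact Poisson intervals.

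Clustering (2000 variable genes without the 32 members, 30 components, 15 neighbours, Leiden resolution 0.5, python-igraph 0.11.9) gave clusters that were named when at least 2 markers of a type were among the 20 leading genes and at least 3 were detected. The number of leading genes was set after leading genes had been seen. Counts were summed per library and class (at least 20 cells) and tested with edgeR 4.0.16 (R 4.3.3), using quasi-likelihood, TMM, filterByExpr and a Benjamini-Hochberg threshold of 0.05 over all genes. Age is 20 weeks over 2 weeks with 1 residual degree of freedom, so the spread of the single 2-week library is taken to equal that between the 20-week replicates. Class comparisons had the library as a block. Ratios of 1 library over another were not tested and use a prior count of 2. DESeq2 1.42.0, other size factors, no filter on low counts, stricter cell filters, thinned cells, a resolution of 1.0 and left-out libraries were alternatives. Fits were tested on simulated data.

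The members, marker lists and wider gene lists were chosen with earlier results of these data known. Values per library are printed for members called in a planned comparison, for those at least 2-fold apart in the same direction in both 20-week libraries, and for the 3 of highest mean CPM in each role. Members called in cluster 3 were added after seeing the data, as were the fits of numbered clusters, the fits with clusters 0, 3 and 8, and the interactions other than that of tenocyte-like and progenitor-like cells. Gene positions are from GENCODE's annotation of GRCm38, 1-based. Some items are not reported here.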

Additional observations from a re-analysis of the deposited data

How the results depend on the processing

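Over all cells, in tenocyte-like and mural-like cells and in clusters 0, 1, 8 and 9, the count of members called for age was 0 under every alternative that gives a test. In progenitor-like cells it was 1 with thinned sums (Nr4a1) and 1 at Leiden resolution 1.0 (Zfp36), against 0. In cluster 3 it was 1 with thinned sums, against 10. For tenocyte-like over progenitor-like cells it was 5 with no filter on low counts, 5 with DESeq2, 2 with thinned sums and 2 at resolution 1.0, against 3, and 3 to 9 with a library left out. For mural-like over progenitor-like cells it was 5 at resolution 1.0 and 8 with thinned sums, against 7, and 3 to 12 with a library left out. For mural-like over tenocyte-like cells it was 2 with no filter, 2 with thinned sums, 1 at resolution 1.0, 1 with DESeq2 and 3 with clusters 0, 3 and 8 in the fit, against 0, and 0 to 6 with a library left out. The cause was not tested, beyond fewer counts in thinned sums and fewer libraries where one is left out. For single called members, 111 values under the alternatives with a test kept their side of the threshold, 27 lost it and 0 reversed. In cluster 3, 20-week libraries taken singly gave ratios with no test, of which 18 moved by less than the spread between the replicates and 2 by more.

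The median share of cells with a UMI of a member was 31.2% and 22.1% in the 20-week libraries and 24.4% in the 2-week library after thinning, against 51.8%, 46.5% and 56.8% without it. Counts over all genes moved under more of the alternatives than those of the members, many of which stayed at 0. In cluster 3 both counts fell with thinned sums. In all cells 22 genes were called, and 0 to 679 under the alternatives. They were 627 (271 to 747) in tenocyte-like cells, 152 (0 to 355) in progenitor-like cells, 2 (0 to 5) in mural-like cells, 530 (69 to 530) in cluster 3, 993 (158 to 1969) for tenocyte-like over progenitor-like cells, 1378 (295 to 2463) for mural-like over progenitor-like cells and 1253 (253 to 2427) for mural-like over tenocyte-like cells.

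No paired analysis was possible because the 2-week library is single and has no replicate number in the labels. Stricter cell filters were not run for class comparisons or for mural-like cells and cluster 9, where under 20 cells remained. With a 20-week library left out, age gives ratios and no test. Depth limits mural-like cells of 20-week replicate 2 most, where 3 UMIs are 45.2 CPM.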
